A study of Caenorhabditis elegans with 2 samples.

Results

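The genes described here encode the respiratory chain and ATP synthase of Caenorhabditis elegans, and the question was which of their promoters carry a peak of NHR-6. They were taken by name from the nuclear protein-coding genes of the Ensembl annotation of WBcel235, as all genes named nuo-, cox-, ucr-, atp-, asb-, asg-, sdha-, sdhb- or sdhd-, together with gas-1, isp-1 and cyc-1. The rule found 42 genes of 19973. They comprise 7 genes of complex I, 4 of complex II, 7 of complex III, 7 subunits of complex IV, 8 genes for the assembly of complex IV (cox-10 to cox-19) and 9 of the ATP synthase. Whole L4 larvae of strain OP90, males and females pooled, were used for ChIP-seq, in which DNA bound to a protein is precipitated with an antibody and sequenced. The strain carries the unc-119(ed3) III mutation and wgIs90, an insertion that expresses NHR-6 tagged with eGFP, so the signal is that of a tagged transgene product averaged over all cells of the animal. There was 1 group with 2 biological replicates, each called by the authors against a control alignment, and no other condition to compare. Whole worms do not show which cells a peak comes from.

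The respiratory chain passes electrons from NADH (through complex I) and from succinate (through complex II) to ubiquinone, then through complex III and cytochrome c to complex IV, where oxygen is reduced. Complexes I, III and IV pump protons across the inner mitochondrial membrane, and the ATP synthase uses their return to make ATP. Most subunits are encoded in the nucleus and a few in mitochondrial DNA. NHR-6, a nuclear receptor, belongs to the NR4A group and is known in this worm for its role in the development of the spermatheca.

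Of the 42 genes, 19 had the summit of a thresholded peak in the promoter window, set from 1000 bp in front of the annotated 5′ end to 200 bp behind it. That is 45.2% (Wilson 95% interval 31.2 to 60.1%), beside 10.5% of all protein-coding genes. Thresholded peaks are the 2720 peaks of the authors' list cut by the irreproducible discovery rate, a measure of reproducibility. They are also the 2720 strongest peaks of the pooled list, and single peaks among them ranked low in 1 replicate. Most of the 19 genes belonged to the ATP synthase (7), complex III (5) and complex IV (4 subunits and 1 assembly gene), and 1 each belonged to complexes I and II. The genes were grouped by name, and intervals cover counting of genes only. No test was made of the difference from other genes or between complexes, and neighbouring genes can share 1 summit.

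Sequence under the summits is shown first for 3 genes whose windows share a run of 12 bases, gtctcgcaacga or its reverse complement. Each line gives the 101 bases centred on the thresholded summit, 5′ to 3′ on the strand of the gene, from the RefSeq WBcel235 (ce11) genome, with the shared run in capitals. The windows are chrX:4469467-4469567 (plus strand) for asb-2, chrII:11097524-11097624 (plus strand) for nuo-1 and chrIII:5228114-5228214 (plus strand) for atp-2. All lie in intergenic sequence or a noncoding gene, outside protein-coding exons.
asb-2: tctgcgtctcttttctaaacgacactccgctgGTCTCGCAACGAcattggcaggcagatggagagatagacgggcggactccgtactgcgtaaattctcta
nuo-1: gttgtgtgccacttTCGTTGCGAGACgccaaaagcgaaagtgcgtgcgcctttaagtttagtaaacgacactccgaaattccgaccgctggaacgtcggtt
atp-2: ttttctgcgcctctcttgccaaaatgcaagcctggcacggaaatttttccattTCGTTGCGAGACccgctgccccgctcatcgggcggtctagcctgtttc
The run was found after comparing the windows of the 19 genes with each other, so it is a description. It stood within 50 bp of 18 of the 2720 thresholded summits (0.662%) and in 1 of 5440 windows of the same length centred 300 bp to either side. All 18 summits lay in a promoter window, and 3 of them were those of asb-2, nuo-1 and atp-2. The windows of asb-2 and nuo-1 shared a second run, of 14 bases in the same orientation (taaacgacactccg), which no other thresholded window held. Those of nuo-1 and ucr-1 shared gtgcgcctttaa, also held by 9 other thresholded windows and by 8 of the 5440 flanking ones.

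Other letters recurred more widely among the 19 summits. Of 8 motifs sought within 50 bp, only GACGCA and CGTCTC had a larger share among the 19 than among all thresholded summits. At least 1 of the 8 motifs stood at 42.1% of the 19, beside 59.7% of all thresholded summits. GACGCA and CGTCTC, sought on both strands and allowed to overlap, are in capitals in the windows of cox-5A (chrIII:12905158-12905258, plus strand) and ucr-1 (chrIII:5591921-5592021, plus strand).
cox-5A: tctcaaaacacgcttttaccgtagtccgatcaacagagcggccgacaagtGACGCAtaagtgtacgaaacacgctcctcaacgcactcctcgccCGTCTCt
ucr-1: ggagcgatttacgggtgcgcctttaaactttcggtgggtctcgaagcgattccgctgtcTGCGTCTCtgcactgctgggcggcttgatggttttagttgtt
GACGCA stood at 5 of the 19 summits (26.3%), beside 16.5% of all thresholded summits. CGTCTC stood at 6 (31.6%), beside 19.04%. Within 25 bp of the summit the order was the other way for CGTCTC, at 1 of the 19 (5.26%), beside 10.4% of all thresholded summits. For GACGCA it was kept, at 4 of the 19 (21.05%), beside 9.38%. Within 100 bp, 26.3% of the 19 held GACGCA, beside 23.97% of all thresholded summits. For CGTCTC at that width it was 31.6%, beside 27.8%. Over the strongest pooled summits of 38 members, the shares within 50 bp were 15.8% for GACGCA and 18.4% for CGTCTC. In ucr-1 and asb-2 the motifs overlap as TGCGTCTC, a joined form found at 10% of all thresholded summits. Every run of 6 letters was also counted in the 19 windows, and the most frequent were chosen after the values were seen. CGAGAC or GTCTCG stood at 7 of the 19 (36.8%), beside 10.7% of all thresholded summits and 2.89% of flanking windows. The 6 letters CGCCCG or CGGGCG also stood at 7 (36.8%), beside 4.04% of all thresholded summits and 1.05% of flanking windows. They are in capitals in the windows of isp-1 (chrIV:8136221-8136321, minus strand) and atp-5 (chrV:11124049-11124149, minus strand).
isp-1: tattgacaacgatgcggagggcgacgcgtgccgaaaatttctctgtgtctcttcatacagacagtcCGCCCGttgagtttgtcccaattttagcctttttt
atp-5: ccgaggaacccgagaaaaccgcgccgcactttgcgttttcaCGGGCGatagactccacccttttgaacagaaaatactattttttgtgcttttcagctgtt
GAGAGA, held by 27.3% of all thresholded summits, stood at 1 of the 19, that of asb-2 (5.26%, exact 95% interval 0.133 to 26.03%), and within 100 bp of 5 (26.3%), beside 42.02% of all thresholded summits at that width. Neither AAAGGTCA, the extended nuclear receptor site that NR4A proteins are known to bind, nor AGGTCA was found within 50 bp of any of the 19 summits. Those letters stood at 0.735% and 3.71% of all thresholded summits. TGACG stood at 15.8% of the 19, beside 19.6% of all thresholded summits. For GCGCGC the shares were 5.26% and 7.61%, and for CACGTG 0% and 3.86%. The member windows were 50.7% ± 5.05 G and C (SD, n = 19 windows), those of all thresholded summits 45.3% ± 7.88 (n = 2720) and the flanks of the member summits 36.2% ± 10.2 (n = 38). The part of base composition in these counts was not tested.

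In the ATP synthase, peaks stood at genes of the catalytic head, the peripheral stalk and the membrane part. Signal is the authors' value per peak, on a scale that the sources used here do not give, and ranks run from 1 for the strongest peak of a list. The gene atp-1, for the alpha subunit, had a thresholded signal of 101.7 (rank 65 of 2720), with 49.0 in replicate 1 (rank 100) and 49.5 in replicate 2 (rank 102). Its replicate ranks lay closer together than those of any other of the 19 genes relative to their size. The gene atp-2, for the beta subunit, had 54.8 in the thresholded list, with rank 347 in replicate 1 and rank 1489 in replicate 2. The gene atp-3, for the oligomycin sensitivity conferral protein of the peripheral stalk, had 52.4, with ranks 827 and 931. In atp-1 and atp-3 the peak was similarly placed in both replicates, whereas that of atp-2 was nearer the top in replicate 1.

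Among the other ATP synthase genes, asb-2, for subunit b of the peripheral stalk, had a signal of 89.4 (rank 107), with 56.0 in replicate 1 (rank 64) and 34.1 in replicate 2 (rank 368). For asg-2, which encodes a subunit g of the membrane part, the signal was 51.8, with ranks 448 and 511. The gene atp-5, for subunit d, had 47.5, with ranks 1996 and 488. Coupling factor 6, encoded by atp-4, had 37.3, with ranks 740 and 4761. The peaks of asb-2 and atp-4 thus stood higher in replicate 1, that of atp-5 higher in replicate 2, and that of asg-2 at similar places in both. Both genes of the ATP synthase without a thresholded summit, asb-1 and asg-1, belong to a pair whose other member had one. Subunit b is also encoded by asb-1, whose strongest pooled peak had a signal of 4.51 (rank 27810 of 30000), beside 89.4 for asb-2. The other subunit g gene, asg-1, had 21.0 (rank 4163), beside 51.8 for asg-2.

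**Figure D1:**
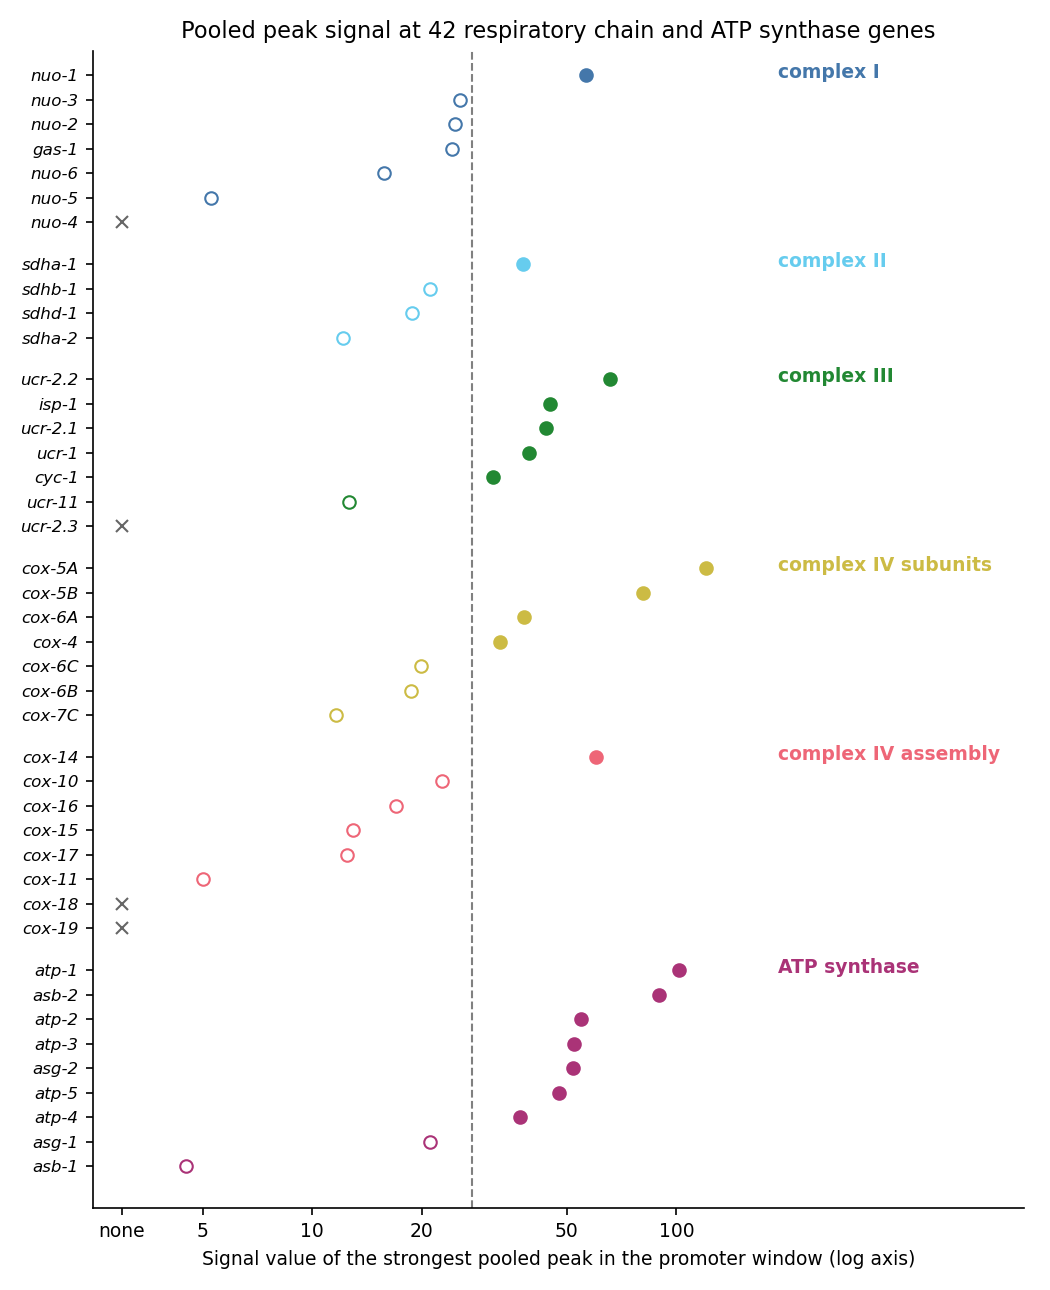
Signal value of the strongest peak of the pooled list in each gene's promoter window (log axis), 1 point per gene, grouped by complex. Filled points lie above the lowest thresholded signal (dashed line, 27.5), open points below it, and crosses mark the 4 genes with no pooled peak. Of the genes taken by the naming rule, 7 of 9 for the ATP synthase and 1 of 7 for complex I are filled.

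In complex III, the Rieske protein, cytochrome c1 and all but 1 of the core protein genes had a thresholded summit. The strongest was at ucr-2.2, which encodes a core protein, with a signal of 65.7 and ranks of 196 in replicate 1 and 697 in replicate 2. The Rieske iron-sulfur protein gene isp-1 had 44.9, with ranks 993 and 1630. The other core protein genes ucr-2.1 and ucr-1 had 43.7 and 39.3. Their ranks were 1742 and 1583 for ucr-2.1, and 2254 and 1713 for ucr-1. Those 4 genes were among the 2720 strongest peaks of both replicates. Cytochrome c1, encoded by cyc-1, had the lowest thresholded signal of the 19 genes, 31.4, and ranked 1321 in replicate 1 and 5370 in replicate 2. The third ucr-2 gene, ucr-2.3, had no summit in any list, and ucr-11, for a small subunit, had a pooled signal of 12.6.

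In complex IV, the strongest peaks stood at genes of nuclear-encoded structural subunits. The gene cox-5A had the highest signal of the 42 genes, 120.4 (rank 32), with 62.7 in replicate 1 (rank 40) and 54.3 in replicate 2 (rank 61). For cox-5B it was 80.8 (rank 169), with ranks 342 and 159. Both were high in each replicate. The peaks of cox-6A and cox-4 were weaker, with signals of 38.0 and 32.8, and each was among the strongest 2720 of 1 replicate only. That of cox-6A ranked 694 in replicate 1 and 7291 in replicate 2, and that of cox-4 ranked 3031 and 779. The subunit genes cox-6C, cox-6B and cox-7C had pooled signals of 19.9, 18.7 and 11.6. The annotated 5′ end of cox-6B lies 86541 bp from its start codon, while for 37 of the 42 genes the distance was at most 50 bp, so its window may not be that of its main start.

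Assembly genes supply the heme and copper of complex IV and insert its subunits, and 1 of 8 had a thresholded summit. This was cox-14, listed by RefSeq as an assembly factor, with a signal of 60.1 and ranks of 320 and 929. The heme farnesyltransferase gene cox-10 had a pooled signal of 22.7, cox-16 had 16.95 and cox-15 had 12.96. The copper chaperone gene cox-17 had 12.4 and cox-11 had 4.996. For cox-18 a summit was found in replicate 1 alone (signal 3.54, rank 17667), and for cox-19 in no list.

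Complexes I and II, through which electrons enter, had 1 thresholded gene each. In complex I this was nuo-1, which encodes the flavoprotein that takes electrons from NADH, with a signal of 56.4 (rank 508), 29.7 in replicate 1 (rank 533) and 23.9 in replicate 2 (rank 980). Just below the lowest thresholded signal of 27.5 stood nuo-3 (25.4), nuo-2 (24.6) and gas-1 (24.2), the last 2 encoding iron-sulfur protein subunits. Further down were nuo-6 (15.7) and nuo-5, for the 75 kDa iron-sulfur subunit (5.26), and nuo-4 had no summit in any list. In complex II the flavoprotein gene sdha-1 had a signal of 37.9, with 8.70 in replicate 1 (rank 5865) and 36.9 in replicate 2 (rank 288). The ratio between the replicate ranks was the widest among the 19 genes, with the peak high in replicate 2 and low in replicate 1. The iron-sulfur subunit gene sdhb-1 had a pooled signal of 21.0, the membrane anchor gene sdhd-1 had 18.7 and the second flavoprotein gene, sdha-2, had 12.2.

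Shares per complex were 77.8% for the ATP synthase (7 of 9, exact 95% interval 40.0 to 97.2%) and 71.4% for complex III (5 of 7, 29.0 to 96.3%). They were 57.1% for complex IV subunits (4 of 7, 18.4 to 90.1%), 25% for complex II (1 of 4, 0.631 to 80.6%), 14.3% for complex I (1 of 7, 0.361 to 57.9%) and 12.5% for complex IV assembly (1 of 8, 0.316 to 52.7%). The share of all protein-coding genes was 10.5%, which lies inside the intervals of complexes I and II and of complex IV assembly. These shares cover only genes taken by the naming rule. With complex I names outside the rule, a list added after the values were seen, complex I had 10 of 33. In complex II, mev-1 lies outside the rule and had a thresholded summit (signal 45.2). The interval of every complex overlapped that of each other one. Such an overlap cannot decide whether complexes differ, and their order was not tested. Complex II had 2 of 4 genes with a summit among the 2720 strongest peaks of replicate 2 and 0 of 4 in replicate 1. Complex I had 3 of 7 in replicate 1 and 1 of 7 in replicate 2. The ATP synthase had 7 of 9 and 6 of 9, and complex III 5 of 7 and 4 of 7. These 2720 peaks per replicate reached 9.99% of all genes in replicate 1 and 9.91% in replicate 2, and 21 (50%) and 17 (40.5%) of the 42 genes.

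**Figure D2:**
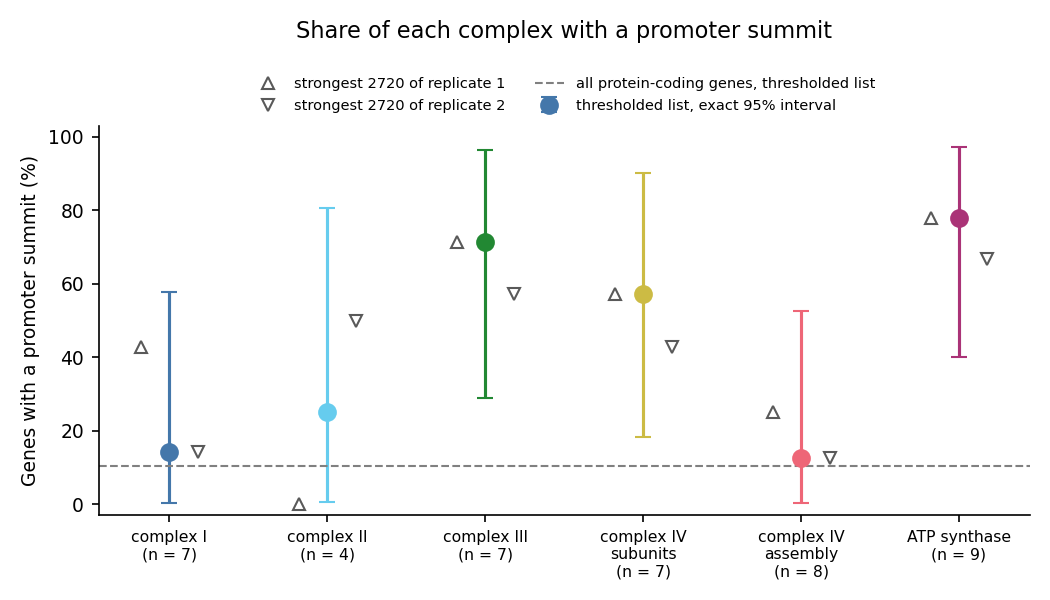
Percent of the genes of each complex with a summit in the promoter window (vertical axis), with the number of genes taken by the naming rule under each name. Filled points with bars are the thresholded list and its exact 95% intervals, triangles the 2720 strongest peaks of each replicate, and the dashed line marks all protein-coding genes (10.5%); the bars of all complexes overlap.

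Outside the thresholded list, most of the remaining genes had a weaker peak. A summit of the relaxed pooled list stood in the window of 38 of the 42 genes (90.5%), beside 41.0% of all genes, since that list holds 30000 peaks and background entries. In the relaxed list of replicate 1 the counts were 37 of 42 (88.1%), beside 38.8% of all genes, and in that of replicate 2 they were 35 of 42 (83.3%), beside 41.9%. The 19 genes with a pooled but no thresholded summit had signals from 4.51 to 25.4, with a median of 16.95. The genes nuo-4, cox-19 and ucr-2.3 had none in any of the 4 lists.

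The 19 thresholded peaks had a median signal of 51.8, beside 39.1 over the whole thresholded list and 40.8 over the 1568 thresholded summits in any promoter window. Of the 19, 4 were among the strongest 10% of thresholded peaks and 14 among the stronger 50%. All 19 overlapped a relaxed peak in both replicates, with median summit shifts of 8 bp in each and largest shifts of 44 bp in replicate 1 and 109 bp in replicate 2. The pooled list was called on the alignments of both replicates, so this closeness follows in part from its making. There were 14 peaks among the 2720 strongest of both replicates, 3 of replicate 1 alone (cyc-1, cox-6A and atp-4) and 2 of replicate 2 alone (sdha-1 and cox-4). The rank was better in replicate 1 for 13 and in replicate 2 for 6. Spearman's rho between the replicate ranks of the 19 peaks was 0.43, a description over peaks of the same 2 libraries, chosen for their pooled signal.

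**Figure D3:**
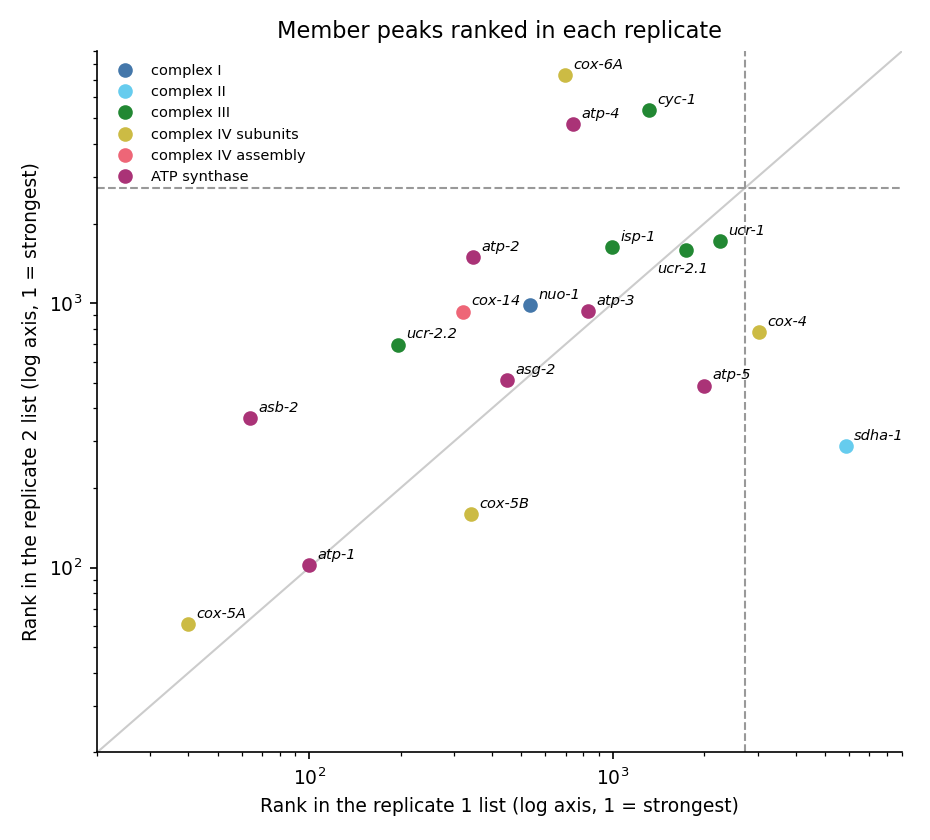
Rank of each of the 19 thresholded member peaks in the replicate 1 list (horizontal) and the replicate 2 list (vertical), both log axes with 1 the strongest, coloured by complex. Dashed lines mark rank 2720 and the diagonal equal ranks; 14 peaks lie inside both lines, 3 are outside for replicate 2 and 2 for replicate 1.

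All 19 summits lay upstream of the annotated 5′ end, at a median of 232 bp, and 13 lay between 100 and 350 bp. The nearest to a 5′ end were those of atp-1 (3 bp), cox-5B (11 bp) and atp-3 (22 bp). In these 3 genes the annotated 5′ end lies 113, 284 and 102 bp from the start codon, whereas the median over the 42 genes was 7 bp. The farthest summits were those of cox-6A (803 bp), cox-4 (472 bp) and atp-4 (453 bp). Of the 19, 15 summits were intergenic, and that of atp-4 lay in the 3′ untranslated region of a protein-coding gene. Those of nuo-1 and sdha-1 lay within a noncoding gene, and that of cox-4 within a pseudogene. The snoRNA gene D2021.6 lay within 200 bp of the sdha-1 summit, and the snRNA gene F54D8.7 within 200 bp of that of cox-6A.

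**Figure D4:**
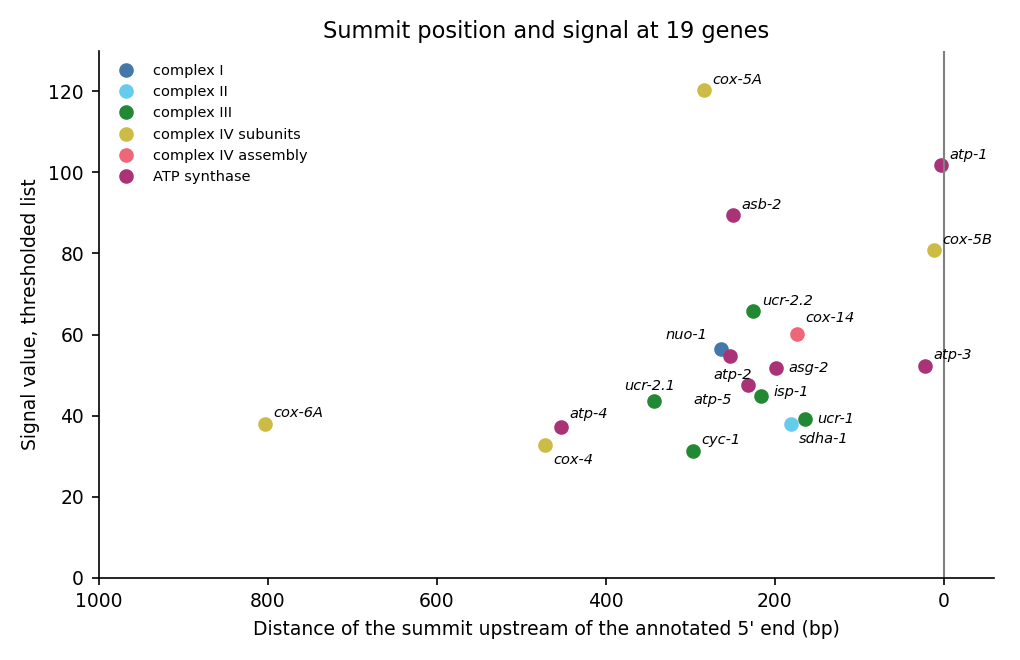
Distance of each of the 19 thresholded summits upstream of the annotated 5′ end of its gene (horizontal, bp, 0 at the 5′ end) against the signal value of the thresholded peak (vertical), coloured by complex. Most points lie between 100 and 350 bp; atp-1, cox-5B and atp-3 lie within 22 bp and cox-6A at 803 bp.

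Several summits could belong to a neighbour as well. In 10 of the 19 genes the same summit lay in the window of at least 1 other gene, and in 4 of these the neighbour's 5′ end was nearer. These were islo-1 for isp-1 (118 bp, against 216 bp), nmat-1 for ucr-2.1 (43 bp, against 343 bp), rde-4 for cox-14 (122 bp, against 174 bp) and lmtr-3 for atp-5 (87 bp, against 232 bp). For the other 6 the respiratory gene was nearer. Its neighbour was the ribosomal protein gene rpl-36.A for nuo-1, ddx-15 for ucr-1, the glutamate receptor gene glr-6 for asg-2, mcrs-1 for atp-1, and F27C1.2 for atp-3. For atp-2 there were 2 neighbours, C34E10.10 and C34E10.12. With each summit given only to the nearest 5′ end, 15 of the 42 genes had one, beside 7.68% of all genes. Unshared summits included those of cox-5A, asb-2, cox-5B and ucr-2.2, which are 4 of the 5 strongest.

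The genes were also sorted by the protein-coding gene in front of them, and no difference between the classes was tested. Of the 24 genes whose upstream neighbour points the other way, 12 had a thresholded summit (50%), beside 15.0% of all genes so placed. Of 15 genes with a neighbour on the same strand less than 500 bp in front, 4 had one (26.7%), beside 7.39% of all such genes. All 3 genes with a same-strand neighbour farther away had one, beside 6.17%. At a spacing under 150 bp, which in this worm is typical of genes transcribed together in operons, 10 of the 42 genes lay behind another, and 1 of them, atp-4, had a summit of its own. These 10 were nuo-2, nuo-4 and nuo-5 of complex I, ucr-11, the assembly genes cox-11, cox-15, cox-17, cox-18 and cox-19, and atp-4. Whether they form operons was not read from any annotation.

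In 3 of those 10, a thresholded summit stood at the first gene of the closely spaced run. For nuo-4 it stood 418 bp from the 5′ end of syf-2, which encodes a splicing factor, and had a signal of 54.2 (rank 591). That is 3724 bp from the 5′ end of nuo-4. For ucr-11 it stood at dad-1, for a subunit of oligosaccharyltransferase, with a signal of 82.2 (rank 151). For cox-18 it stood at Y55F3AR.2, with a signal of 78.1 (rank 183). Counting those summits, 22 of the 42 genes (52.4%) had one, beside 12.6% of all genes by the same rule. Among all 1568 genes behind a close neighbour, 5.36% had a summit of their own and 29.7% had one at the first gene of the run. The 32 members with no such gene in front had a summit in 18 cases (56.3%), beside 10.9% of all genes so placed. By complex these were 1 of 4 in complex I, 1 of 4 in complex II, 5 of 6 in complex III, 4 of 7 subunits and 1 of 3 assembly genes of complex IV, and 6 of 8 in the ATP synthase.

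**Figure D5:**
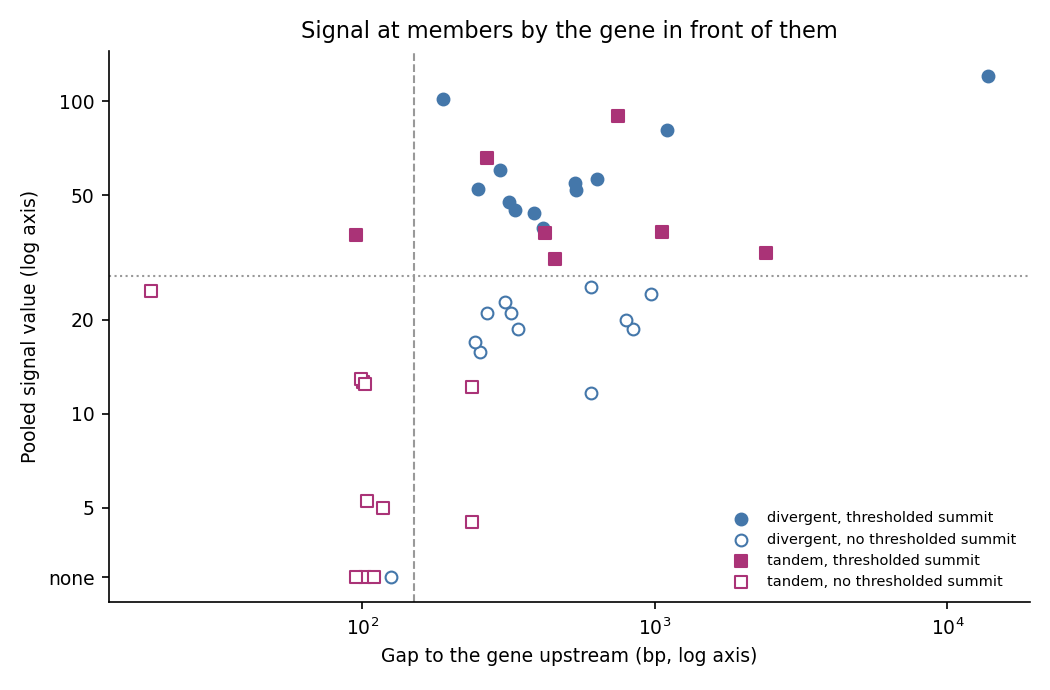
Gap between each of the 42 genes and the protein-coding gene in front of it (horizontal, bp, log axis) against the signal value of its strongest pooled peak (vertical, log axis, with genes lacking one at "none"). Circles are genes whose neighbour points the other way and squares those with a same-strand neighbour, filled where a thresholded summit was found; left of the dashed line at 150 bp, 1 of 10 squares is filled.

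Genes of the same pathway that the naming rule left out were described from lists. Their counts stand beside the 10.5% of all protein-coding genes with a thresholded summit. Among other subunits, electron carriers and regulators of the ATP synthase, 6 of 13 had a thresholded summit. In complex I these were nduf-2.2, for the 49 kDa subunit (signal 72.0), nduf-11 (52.7) and nduf-6 (42.4). The others were mev-1, for cytochrome b560 of complex II (45.2), hpo-18, for the epsilon subunit of the ATP synthase (48.6), and mai-2, for its inhibitor (36.7). The hpo-18 summit was 1 of the 18 with the shared run of 12 bases. It lay 565 bp from the 5′ end of hpo-18 but 176 bp from that of mcm-7, and also in the window of figl-1. All genes named nduf-, ndua-, ndub-, nduc-, ndus-, nduv- or lpd-5, a list added after the member values were seen, gave 9 of 26 (34.6%), with the highest signal at nduc-2 (106.5, rank 52). With them complex I had 10 of 33 genes with a summit. The remaining 5 of these were ndua-5 (41.3), ndua-8 (50.3), ndub-3 (37.2), ndub-8 (46.4) and nduv-3 (42.1). The summits of nduc-2 and nduf-2.2 lay 797 and 774 bp from their annotated 5′ ends. Sharing with a neighbour was not examined for the complex I names outside the rule.

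Genes of coenzyme Q synthesis, which make the ubiquinone between complexes I and III, had a thresholded summit in 0 of 8 cases. The Wilson 95% interval of that share, 0 to 32.4%, includes the 10.5% of all genes, so the count does not set them apart from all genes. A pooled summit stood at 7 of the 8, beside 41% of all genes. Of the ADP/ATP carriers, 1 of 4 had a thresholded summit, ant-1.1 (62.5). Of 5 further assembly genes, 2 had one, sco-1 of complex IV (73.4) and nuaf-1 of complex I (71.5). Of 15 citrate cycle genes, which supply the chain with NADH and succinate, 8 had one. They were dld-1 (91.7), sucl-1 (87.3), aco-2 (84.3), cts-1 (59.7), mdh-2 (42.7), suca-1 (31.1), idha-1 (29.6) and fum-1 (28.7). Beside these, shares were 28.6% of 70 mitochondrial ribosomal protein genes, 35.0% of 20 vacuolar ATPase genes and 85.9% of 78 cytosolic ribosomal protein genes. The share of the 42 was 45.2%, and that of all genes 10.5%. The difference between lists was not tested.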

How the data were processed

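The members and lists were chosen with earlier results of these data known. The authors deposited peak lists in narrowPeak order for each replicate, for both replicates pooled, and thresholded by the irreproducible discovery rate. Per the deposited text listings, replicate and pooled peaks were called against a control alignment on ce11. Aligner, peak caller and settings were not given in the sources used here. Signal tracks, the control library and ce10 lists were not analysed here. The signal value is the authors' score per peak. The deposited −log10 q-value was at its maximum for all thresholded peaks and was not used to rank them. Signals served only to rank and describe peaks within a list. The thresholded list held 2720 peaks, the pooled list 30000, replicate 1 26801 (26773 on nuclear chromosomes) and replicate 2 30000. Ranks were taken over nuclear chromosomes, and replicate peaks were matched by an overlap of 1 bp. Read depth is unknown from peak lists. The labels name biological replicates of 1 group, so no groups were compared and no p-value was computed.

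Gene ends came from Ensembl release 115 and sequence from RefSeq, both WBcel235, which is ce11. Calculations used Python 3.11.15, numpy 2.4.6, pandas 2.3.3, scipy 1.17.1 and matplotlib 3.10.9, and window assignment was tested on simulated data. Named were all members, the genes that share their peaks and the listed pathway genes with a thresholded summit. Other names were picked with their values known. The promoter of nhr-6 itself held no thresholded summit, and its pooled signal was 26.1. Within the nhr-6 gene and 2000 bp to either side there were 2 thresholded summits. Alternatives changed the window, the list, the overlap, the 5′ end and the replicate.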

Additional observations from a re-analysis of the deposited data

Results flagged for a closer look

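The list of replicate 1 held 28 peaks on the mitochondrial chromosome, whose 12 protein-coding genes encode subunits of the same complexes and fall outside the nuclear rule, while the lists of replicate 2 and of the pooled replicates held 0. Their signals ran from 8.54 to 514.2, with the strongest at rank 4 of that list, and 21 summits lay within 11 of the 12 mitochondrial protein-coding genes. They stand out because 1 replicate alone lists them, and what lies behind that was not tested.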

How the results depend on the processing

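The count of 19 genes stayed between 14 and 22 under other windows, the stronger 50% of peaks, interval overlap, any transcript's 5′ end, nearest-end assignment and close runs. The share of all genes under these settings ran from 6.07% (stronger 50% of peaks) to 13.5% (window reaching 2000 bp upstream). With all relaxed pooled peaks it was 38, beside 41% of all genes. The counts then rose to 6 of 7 in complex I, 4 of 4 in complex II, 7 of 7 complex IV subunits and 6 of 8 assembly genes. They were 53 of 70 mitochondrial ribosomal and 16 of 20 vacuolar ATPase genes. With the stronger 50% of thresholded peaks, complex II fell to 0, complex IV subunits to 2 and mitochondrial ribosomal genes to 13, beside 6.07% of all genes. The window reaching 2000 bp upstream gave 2 assembly genes, beside 13.5% of all genes. Leaving out a replicate gave 17 to 21 members, 1 to 3 genes of complex I, 0 to 2 of complex II and 1 to 2 assembly genes. The share of all genes was then 9.91 to 9.99%. Alternatives added after seeing the data gave, by nearest 5′ end, 3 genes of complex III, 0 assembly genes, 12 mitochondrial ribosomal and 39 cytosolic ribosomal genes. By that rule 7.68% of all genes had a summit. Counting the first gene of a close run gave 2 genes of complex I and 2 assembly genes, beside 12.6% of all genes. Adding other complex I names gave 10 of 33, beside 10.5%. A larger list or more genes raises such counts by construction; the cause of the other shifts was not tested. The remaining 77 values stayed within 1.5 times, among them rho, which was 0.45 with summits within 100 bp. Of 61 motif shares and signals, 3 shares left the exact 95% interval of the share within 50 bp: GAGAGA within 100 bp (26.3%), GCGCGC within 25 bp (0%) and CGTCTC within 25 bp (5.26%). By construction a wider window can only raise such a share and a narrower one only lower it. A share of 0% also lies outside any exact interval built on a count of 1, as that of GCGCGC was.

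No paired analysis was possible because there is 1 group. Complexes of 4 to 9 genes, 2 replicates, 1 stage and unknown depth limit these values. A peak of a tagged transgene in whole worms shows neither the cell type nor an effect on transcription, and no control immunoprecipitation was analysed here.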
